A study of Mus musculus with 96 samples.

Results

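The mitosis and G2 genes described here are 51 genes chosen by symbol, as genes known to act between the end of DNA replication and the separation of the daughter cells, out of 55487 genes in the table of counts. The list was drawn up with earlier results of these data known. The members lie on 17 chromosomes, with 10 members on chromosome 2, and all 51 are protein coding in the GENCODE vM21 annotation. They were followed over 96 single cells and within 48 pairs of sister cells.

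The cells were horizontal basal cells (HBCs), the reserve stem cells of the olfactory epithelium (OE), and all belonged to 1 group. They came from Wild type mice of 6 to 8 weeks whose OE was dissected 2 days after an injection of methimazole, a drug that damages this tissue, and were cultured on coated dishes, which carried Tropoelastin at first and Fibronectin later. After a division, each daughter cell was picked by mouth pipette with its partner noted, ERCC spike-in RNA was added to the lysate, and the polyadenylated RNA was sequenced by G&T-seq. Neither a mouse nor a culture is named for any cell, so the 96 cells were treated as 1 sample and no test between conditions was possible.

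A cell enters mitosis when Cdk1, bound to a B-type cyclin, becomes active, and it leaves mitosis when the anaphase-promoting complex (APC/C) marks the cyclins and securin for destruction. Transcripts of genes that act in this phase build up through S and G2 phase and decline after division. Their promoters are known for CCAAT boxes, which bind NF-Y, and for a cell cycle homology region (CHR), which binds the MuvB complex together with B-Myb and FoxM1 in dividing cells or with a repressive pocket protein and E2F in quiescent ones. In the OE, divisions of HBCs are rare as long as the tissue is undamaged.

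The RefSeq promoter table for GRCm38.p6, the genome build of the deposited files, held 45 windows for 42 of the 51 members, each running from 250 bases before to 50 bases after a transcript start. The windows below are those of the 4 members that followed the rest of the list most closely over the cells and of the 2 that followed it least. Each is written 5′ to 3′ along the strand of the gene, and capitals mark CCAAT or the CHR-type hexamers TTTGAA or TTCGAA, on either strand.
Top2a, chr11:99024140-99024439, minus strand: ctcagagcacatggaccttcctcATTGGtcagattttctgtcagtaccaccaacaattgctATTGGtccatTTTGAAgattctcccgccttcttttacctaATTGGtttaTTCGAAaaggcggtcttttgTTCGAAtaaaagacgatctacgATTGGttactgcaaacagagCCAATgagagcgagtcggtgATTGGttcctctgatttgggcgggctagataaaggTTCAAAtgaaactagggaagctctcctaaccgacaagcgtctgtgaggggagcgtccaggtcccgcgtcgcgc
Kif11, chr19:37376132-37376431, plus strand: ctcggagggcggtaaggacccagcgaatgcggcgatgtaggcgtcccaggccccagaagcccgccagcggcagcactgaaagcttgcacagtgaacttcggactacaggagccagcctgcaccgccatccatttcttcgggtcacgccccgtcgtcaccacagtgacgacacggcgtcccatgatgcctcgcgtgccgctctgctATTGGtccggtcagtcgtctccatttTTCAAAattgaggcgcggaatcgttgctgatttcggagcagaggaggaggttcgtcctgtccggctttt
Prc1, chr7:80294201-80294500, plus strand: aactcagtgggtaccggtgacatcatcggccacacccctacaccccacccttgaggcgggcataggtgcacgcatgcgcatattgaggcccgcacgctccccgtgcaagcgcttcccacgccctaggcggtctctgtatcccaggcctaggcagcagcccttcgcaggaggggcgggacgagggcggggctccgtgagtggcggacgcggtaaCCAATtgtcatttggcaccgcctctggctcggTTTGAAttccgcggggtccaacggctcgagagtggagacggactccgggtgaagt
Mki67, chr7:135716330-135716629, minus strand: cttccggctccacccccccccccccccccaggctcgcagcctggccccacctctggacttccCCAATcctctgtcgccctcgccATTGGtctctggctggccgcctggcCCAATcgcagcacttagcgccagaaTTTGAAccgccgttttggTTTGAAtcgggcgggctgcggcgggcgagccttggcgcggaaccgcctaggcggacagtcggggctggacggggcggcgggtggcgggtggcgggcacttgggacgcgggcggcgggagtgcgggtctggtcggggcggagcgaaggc
Nek2, chr1:191821223-191821522, plus strand: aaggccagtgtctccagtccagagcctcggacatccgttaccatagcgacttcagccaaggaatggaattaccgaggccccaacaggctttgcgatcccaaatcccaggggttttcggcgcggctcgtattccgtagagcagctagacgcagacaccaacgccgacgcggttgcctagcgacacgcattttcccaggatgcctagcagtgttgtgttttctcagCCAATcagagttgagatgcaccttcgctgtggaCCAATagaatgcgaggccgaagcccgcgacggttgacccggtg
Pttg1, chr11:43425932-43426231, minus strand: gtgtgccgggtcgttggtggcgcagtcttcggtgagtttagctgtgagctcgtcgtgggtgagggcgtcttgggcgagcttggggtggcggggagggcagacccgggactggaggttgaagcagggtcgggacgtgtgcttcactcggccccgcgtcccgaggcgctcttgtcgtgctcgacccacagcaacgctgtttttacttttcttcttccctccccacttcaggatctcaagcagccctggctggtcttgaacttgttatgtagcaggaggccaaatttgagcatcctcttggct

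The median GC content was 58.7% in the member windows, 52.7% in all windows and 61% in the windows of genes that passed the count filter used below. CCAAT was found on either strand in 36 of the 45 member windows, against 37.4% of all 32851 windows in the table. TTTGAA or TTCGAA was found in 35 of 45, against 19.2% of all windows and 14.1% of the 12354 windows of genes that passed the filter. Both kinds of motif stood in 32 of 45 member windows, against 7.52% of all windows. More than 1 CCAAT was present in 22 of 45, against 11.7%. Matches of the 2 motifs may overlap by a few letters, and a match is a description of the letters and not a binding site. The median match to CCAAT began 73 bases before the start, and the median match to a CHR-type hexamer 21 bases before it.

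The window of Top2a, the topoisomerase that untangles sister chromatids, held 6 matches to CCAAT and 4 to a CHR-type hexamer, the one nearest to the start 23 bases before it. The windows of Kif11 and Prc1 each held 1 CCAAT followed by 1 hexamer, at 45 and 19 bases before the start for Kif11 and at 37 and 5 bases for Prc1, in the printed one of its 2 windows. Mki67 had 3 matches to CCAAT and 2 to TTTGAA. Nek2 had 2 matches to CCAAT and no hexamer, and Pttg1 had neither motif. Pttg1 was not alone in this, since Birc5, Nusap1, Tacc3, Ncaph and Melk also had neither motif in the window, and Birc5 followed the other members closely. Ccnb2, Cdc25b and Ncapd2, which were next above Nek2 in following the others least, each held both motifs. Ccnb1 followed the others closely and held CCAAT but no hexamer. The printed windows therefore do not show that the motifs go with the correlation. The window of Pttg1 lay wholly inside the gene as placed in the deposited data, from 43420250 to 43426251 on chromosome 11. The bases before that gene start were therefore not searched, and the lack of motifs holds for the printed letters only. Windows of Cdca3, Cdca8, Kif14, Kif2c and Kif4 also lay wholly inside their genes.

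The reads counted on genes numbered 29454150 to 44849003 a cell, and the method has no molecular identifiers, so PCR copies count as separate reads. Counts were divided by a spike-in size factor per cell, which ranged from 0.387 to 1.93, and the quotients are called normalized counts below. For the HBC identity of the cells, Krt5, Krt14, Itga6, Itgb4 and Trp63, the gene of p63, were counted in all 96 cells, with median levels of 2090 TPM for Krt5 and 3672 TPM for Krt14. The other 3 HBC markers, Krt15, Icam1 and Cebpd, were counted in 68, 86 and 77 cells. Of 22 markers of globose basal cells, olfactory sensory neurons, sustentacular cells, immune cells and fibroblasts or vessels, 4 were at 0 in every cell (Kit, Cnga2, Ermn and Cyp1a2). Adcy3 and Cd68 passed 1 TPM in 61 and 48 cells, and none of the other 20 did so in more than 8. The summed level of a marker list reached 17.3 TPM at most for globose basal cells, 64.5 TPM for neurons, 28.1 TPM for sustentacular cells, 358 TPM for immune cells and 18.2 TPM for fibroblasts and vessels. The part of other cell types in the results was not tested beyond these levels.

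All 51 members passed the filter of 10 counts in at least 10% of cells, which kept 14463 genes. At least 1 count was found in all 96 cells for 23 of the 51 members, while 31.8% of the 14463 genes were counted in all cells. At a minimum of 10 counts 11 members were. No member reached 1 TPM in all cells. Levels are compared between genes in TPM, which takes account of transcript length, and every level in TPM below is the lowest, the median and the highest of the 96 cells.

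Among Cdk1, its cyclins and the phosphatases that activate it, Cdk1 ran from 0.236 over 84.9 to 292 TPM. Ccna2, the cyclin of S and G2 phase, had the highest median level in this group, with 0.102, 87.6 and 309 TPM. Ccnb1, a mitotic cyclin, ran from 0.173 over 76.4 to 598 TPM. The mitotic cyclins and Cdk1 thus spanned a wide range within a single culture group, and at least 80 of 96 cells lay above 1 TPM for each of these 3. The phosphatase genes were sparser: Cdc25c was lowest of the group with a median of 2.71 TPM and 228 TPM at most, and 53 cells passed 1 TPM, while Cdc25b had a median of 3.30 TPM and 50 such cells.

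Aurka, the kinase of the spindle poles, was the highest of the 4 mitotic kinases, with 0.0856, 53.2 and 524 TPM. Nek2, a kinase that splits the centrosomes, was the lowest, with 0, 18.9 and 122 TPM, and Plk1 and Melk lay between them. In the chromosomal passenger complex, which corrects the attachment of chromosomes to the spindle, Birc5 (survivin) had the highest median level of all 51 members, with 0.821, 257 and 873 TPM. Aurkb, the kinase of the complex, was its lowest member with a median of 62.1 TPM. The 4 subunits overlapped over the cells, and 94 cells passed 1 TPM for Birc5 against 73 for Aurkb.

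The 8 kinesins, a family of proteins that act on microtubules, ranged in median level from 2.61 TPM for Kif14 to 47.0 TPM for Kif22. Kif11, which slides the spindle poles apart, had 25.3 TPM in the median cell and 184 TPM at most. Among the 10 spindle proteins, Tacc3, which stabilizes kinetochore fibres, was highest with 0.381, 109 and 555 TPM. Fam83d, which places the spindle, was lowest with 0.743 TPM in the median cell and 206 TPM at most. Anln, which acts on the contractile ring, and Arhgap11a were the highest and the lowest of the cytokinesis genes, with median levels of 64.5 and 13.2 TPM.

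In the group for chromosome structure, Top2a was highest with 0.374, 141 and 637 TPM, and Cdca2, which recruits a phosphatase to chromatin, was lowest with a median of 25.1 TPM. Mki67, the source of the Ki67 antigen that coats mitotic chromosomes, had a median of 72.1 TPM and passed 1 TPM in 90 cells. In the group for anaphase, Cdc20, the activator of the APC/C, reached the level of 1535 TPM and Ube2c, its ubiquitin-conjugating enzyme, 1548 TPM, the 2 highest maxima among the members. Espl1 (separase), which cleaves cohesin, had a median of 0.918 TPM. There were 5 members with a median level under 1 TPM: Espl1, Nusap1 (0.800), Fam83d, Prr11 (0.673) and Pif1 (0.108). Each of these nevertheless passed 1 TPM in 41 to 48 cells and reached 40.4 to 206 TPM, so a median near 0 did not mean that the gene was at 0 throughout. In 19 cells all 5 passed 1 TPM, and in 19 cells none did.

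**Figure D1:**
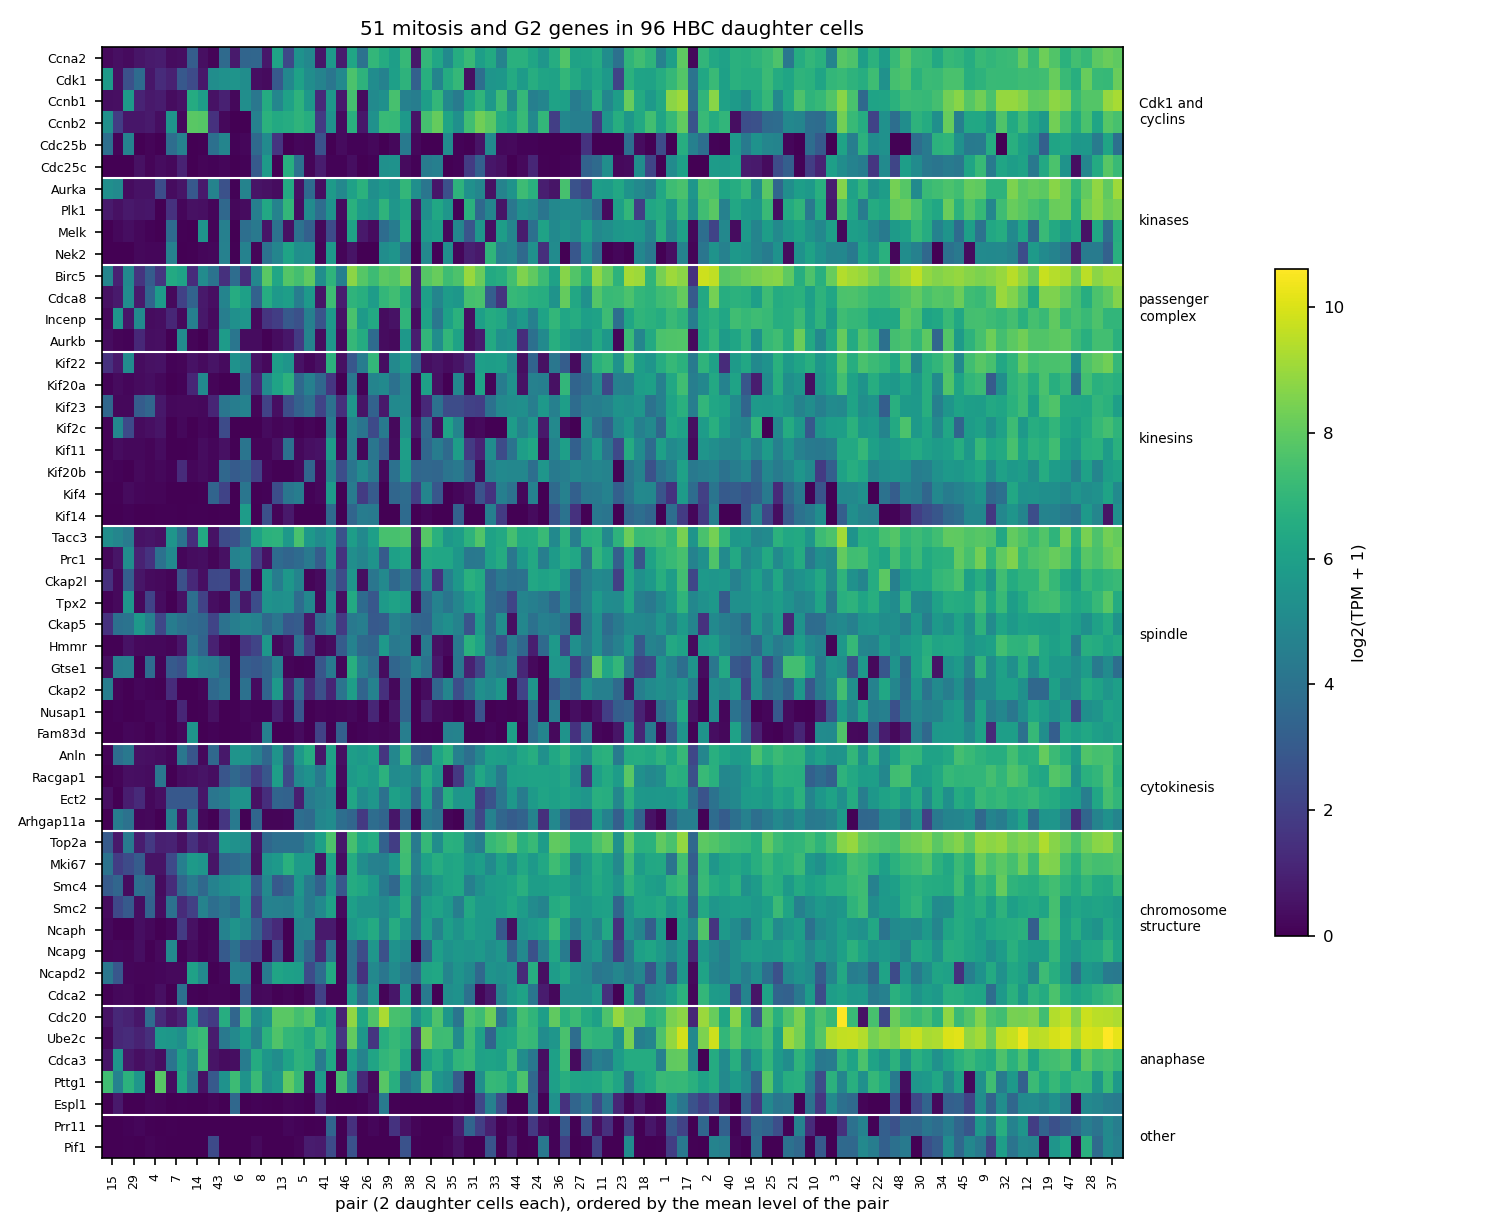
Heat map of log2(TPM + 1) for the 51 members (rows, grouped by role and ordered by median TPM within a role) in the 96 cells (columns, 2 adjacent columns a pair, pairs ordered by the mean level of both daughters). Cells at the left have most members near 0, cells at the right have nearly all of them above 1 TPM, and Pttg1 is bright in columns at both ends.

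Summed over the list, the members took between 265 and 16999 CPM (counts scaled to the total on genes) in a cell, with a median of 4578, so the share of all gene counts ran from 0.0265% to 1.70%, a 64.1-fold range. The number of members at or above 1 TPM ran from 10 to 51 per cell, with a median of 45. All 51 passed this level in 13 cells and 25 or fewer did in 12 cells. As a single level for a cell, the mean over the 51 members of log2(normalized count + 1) was taken. It ran from 4.30 to 14.0 with a median of 10.3 and an SD of 2.45 over cells, and 12 cells lay under 6.

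The cells at both ends came from several sets of 8 cells, as read from the names under which the data were deposited. The lowest levels were those of daughters 29-2 (4.30), 4-2 (4.31), 15-1 (4.43), 15-2 (4.73) and 7-1 (4.94), which belonged to sets 8, 1, 4 and 2. The highest were those of 47-1 (14.0), 17-1 (13.2), 28-2 (13.0), 9-1 (13.0) and 37-1 (13.0), from 5 sets. The sets were not alike: their mean level ran from 7.04 in set 2 and 7.10 in set 4 to 11.6 in set 3, where no cell lay under 9.95. What the sets stand for is not stated, and a set and the pairs in it cannot be told apart.

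Beside the level of the members, technical measures of the cells moved as well. The level had a Spearman correlation over 96 cells of -0.50 with the size factor, of 0.52 with the number of genes detected, of 0.24 with the counts on genes and of -0.02 with the mitochondrial share. The size factor enters the level itself, and the summed CPM, which do not use it, correlated at -0.26 with it and at 0.30 with the number of genes detected. Cell 47-1, the highest of all, also had the lowest size factor, 0.387. The part of RNA content or capture in the level was not tested.

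The members moved together over the cells. Each member was set against the mean of the other 50 by a Spearman correlation over the 96 cells, which share sets, depth and scaling. The median of these values was 0.81, beside a median of 0.17 for the 14463 genes against the mean of all members. With CPM these medians were 0.77 and 0.036, and with the median of ratios over genes 0.76 and -0.0026. The median member had 2335 counts and the median of the 14463 genes 427, and genes of like counts were not compared. The list was chosen with earlier results of these data known, so the contrast with all genes is no independent test of it. Of the 51 members, 37 had a correlation of at least 0.7, while 0.678% of all genes did, 37 of those 98 being the members themselves. Over the 1275 combinations of 2 members the median Spearman correlation was 0.62, and 3 combinations were below 0, each with Pttg1. A first principal component of the members, scaled to equal spread, held 56.3% of their variance and the second 4.50%.

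Top2a followed the others most closely, with a correlation of 0.94, then came Kif11 (0.91), Prc1 (0.90), Mki67 (0.89) and Smc4 (0.89). Prc1 bundles microtubules in the central spindle and Smc4 is a core subunit of condensin. The highest correlation between any 2 members was 0.90, between Top2a and Kif11. The lowest values belonged to Pttg1 (0.15), Nek2 (0.44), Ccnb2 (0.47), Cdc25b (0.48) and Ncapd2 (0.53).

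Pttg1, the gene of securin, which holds separase inactive until anaphase, stood apart from the rest. Its normalized counts ran from 0 over 1052 to 5350, and it passed 1 TPM in 86 cells, more than Aurkb or Kif11. Its highest correlation with any other member was 0.25, with Espl1, the gene of the protease that securin inhibits. Pttg1 was thus well counted while it did not follow the members with which it acts, and among the 51 it also had the lowest likeness between sisters.

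Sister cells resembled each other in these genes. The intraclass correlation, the share of the variance of log2(normalized count + 1) that lies between pairs rather than within them, was 0.77 for the mean level of the 51 members over 48 pairs. For the mean levels of other lists described below it was 0.75 (S phase), 0.66 (regulators of mitotic transcription) and 0.64 (APC/C and spindle checkpoint). It was 0.55 for G1 cyclins and inhibitors and 0.32 for the HBC markers. For single members the intraclass correlation had a median of 0.52, beside 0.47 over the S phase genes and 0.16 over the 14463 genes. It was at least 0.5 for 32 of 51 members and for 6.90% of all genes. The background of all genes was not matched for counts either, which were higher in the members. Here too the list was chosen with earlier results of these data known. Racgap1, which acts at the cleavage site, had the highest value (0.74), followed by Top2a (0.71), Ect2, which acts in cytokinesis (0.70), Kif22 (0.69) and Prc1 (0.67). The lowest values were those of Pttg1 (0.16), Melk (0.25), Ckap5 (0.26), Pif1 (0.29) and Gtse1 (0.29). When values were centred on the mean of each set, the median of the members was 0.37 and that of all genes 0.00148. The resemblance of sisters within sets was thus lower in value for both, and the distance between them remained.

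**Figure D2:**
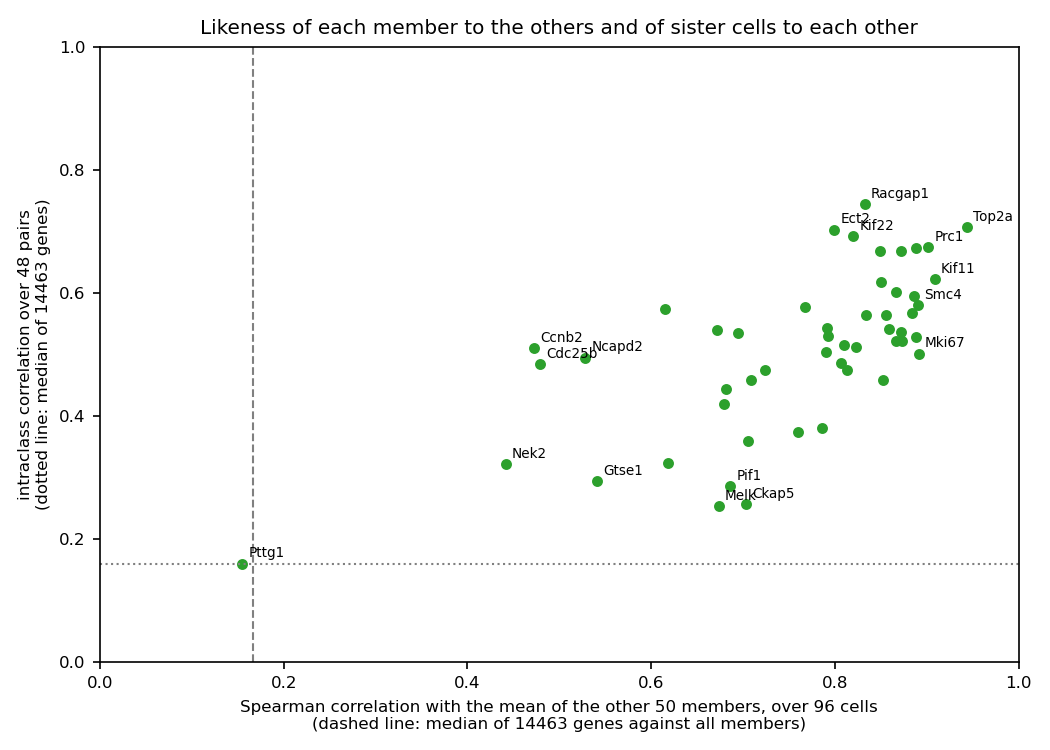
Each of the 51 members by its Spearman correlation with the mean of the other 50 over 96 cells (horizontal axis) and its intraclass correlation over 48 pairs (vertical axis), with the 5 highest and 5 lowest on either axis named. The dashed and dotted lines are the medians of the 14463 genes (0.17 and 0.16), and Pttg1 lies beside their crossing while Top2a lies at the far right.

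Within a pair, a ratio of the higher to the lower daughter was taken for each gene, with 1 added to both normalized counts. The median of this ratio over the 48 pairs was at least 1.5 for all 51 members, but it was so for 78.4% of the 14463 genes as well, and it was at least 2 for 36 members and for 59.7% of genes. A median ratio past 1.5 was therefore common among all genes and by itself no mark of the members. The background was not matched for counts: the median member had 2335 counts and the median of the 14463 genes 427. With TPM, where 1 was added to smaller values and narrows the ratios, 47 members and 63.2% of genes had a median ratio of at least 1.5. With CPM 49 members and 76.9% of genes did. The median over members was 2.36 and over all genes 2.39. The steadiest members were Smc4 (1.56), Smc2 (1.58), Ccna2 (1.62), Top2a (1.63) and Mki67 (1.66). The most variable were Pif1 (6.39), Fam83d (6.28), Prr11 (5.43), Espl1 (4.86) and Nek2 (4.53), of which 4 had a median level under 1 TPM. For comparison, 12 ERCC transcripts with a median of 1000 to 10000 counts had median ratios of 1.21 to 1.92. ERCC RNA was added in equal amount to every cell. The 40 members with such counts had median ratios of 1.56 to 4.53. The 12 transcripts were among those used for the size factors, which brings daughters closer in them by construction. They were also counted in all cells, which was not required of the members. Their ratios are therefore no independent measure of technical spread in the members.

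The pairs were then compared by the mean level of the members. The absolute difference between daughters ran from 0.0112 to 5.74, with a median of 0.728 and an SD of 1.27 over 48 pairs. It was at least 1 in 17 pairs and under 0.5 in 17. Both daughters lay under 6 in 5 pairs (4, 7, 14, 15 and 29), and both lay at 12 or more in 7 pairs. The difference was over 4 in 3 pairs. On the TPM scale, 9 pairs differed by at least 1, and with CPM 16 did. The pseudocount of 1 was kept for TPM, where the median member had 39.7 TPM against 2335 counts. This narrows differences of logs, so the cutoff of 1 is not a like measure on the TPM scale. Over the 48 pairs the signed difference had a Spearman correlation of -0.43 and a Pearson r of -0.46 with the log2 ratio of the daughters' size factors, which enter the level, and the part of the size factor in the differences was not tested.

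**Figure D3:**
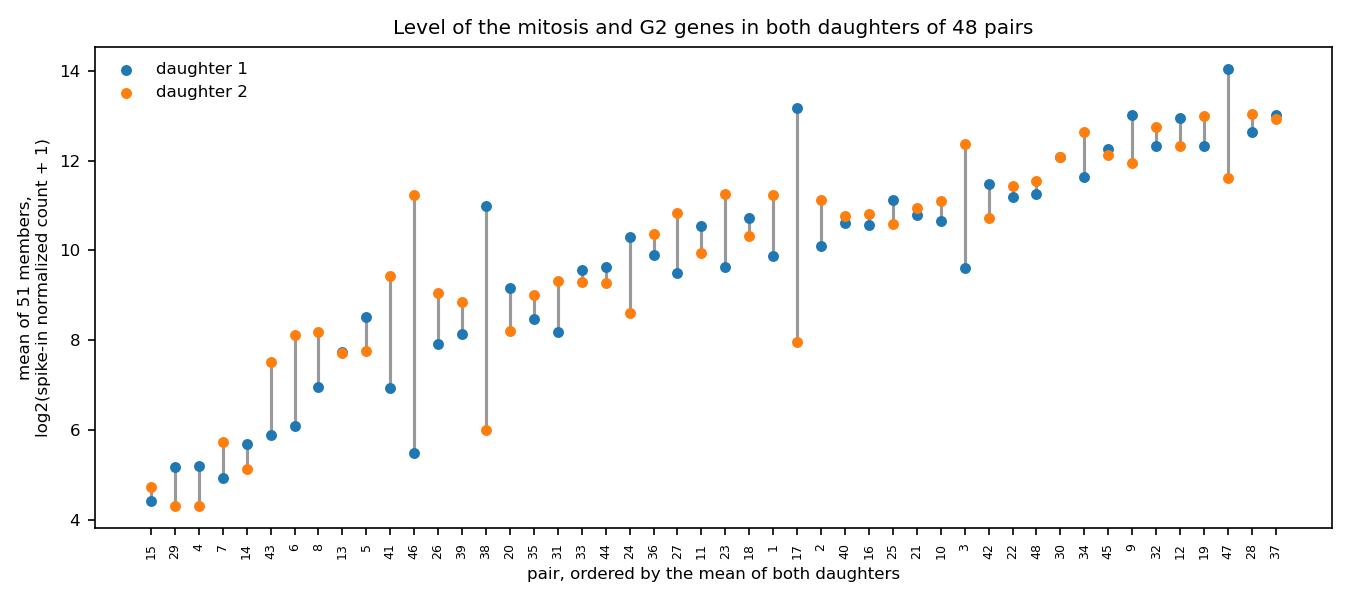
Mean of log2(normalized count + 1) over the 51 members in daughter 1 (blue) and daughter 2 (orange) of the 48 pairs, joined by a line and ordered by the mean of the pair. Most lines are short against the range of 4.30 to 14.0, and pairs 46, 17 and 38 have the longest.

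The 5 pairs with the largest difference were 46, 17, 38, 3 and 41. They were chosen for that difference, so the values of their members describe them and test nothing. In pair 46, daughter 46-1 had a level of 5.50 and daughter 46-2 of 11.2. At least 1.5 times more normalized counts were found in 46-2 for 46 of 51 members, where 40.8% of all genes were that much higher, and 3 members were lower by this measure, where 26.9% of genes were. The size factors of 46-1 and 46-2 were 0.684 and 0.553, and 12360 and 13006 genes were detected.

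Mki67 had 93.6 normalized counts in 46-1 and 32760 in 46-2, Top2a 92.1 and 30438, and Cdc20 51.2 and 29153. Cdk1, by contrast, was well counted in both, with 2697 and 27061. In 46-1, 17 of the 51 members passed 1 TPM, against 45 in 46-2. The 3 members that were lower in 46-2 were Fam83d (844 in 46-1 and 0 in 46-2), Pttg1 (3890 and 842) and Cdc25b (23.4 and 7.24). Among genes outside the list, the transcription factor gene Mybl2 (B-Myb) had 14.6 and 5743 normalized counts and Pcna, the sliding clamp of replication, 739 and 12855. Trp63 ran the other way, with 28724 in 46-1 and 67 in 46-2.

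In pair 17 both daughters had counts of many members, and the levels were 13.2 in 17-1 and 7.97 in 17-2. In 17-1, 49 members were at least 1.5 times higher, where 47.6% of all genes were, and 1 was lower, where 22.6% of genes were. The size factors of 17-1 and 17-2 were 0.673 and 1.03, and 14535 and 13963 genes were detected. Ccna2 had 24799 normalized counts in 17-1 and 11.6 in 17-2, and Aurkb 13266 and 11.6. Plk1, the kinase that drives entry into mitosis, differed less, with 10663 and 2002. Gtse1, a microtubule-associated protein of G2 phase, was the 1 member that was lower, with 1198 in 17-1 and 2650 in 17-2. Cdkn1a (p21), an inhibitor of cyclin-dependent kinases, had 6263 in 17-1 and 51694 in 17-2, and Foxm1 had 2498 and 345.

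In pair 38 the levels were 11.0 in 38-1 and 6.00 in 38-2, with 47 members at least 1.5 times higher in 38-1, where 36.9% of genes were, and 2 lower, where 28.5% of genes were. The size factors of 38-1 and 38-2 were 0.911 and 1.07, and 13072 and 13104 genes were detected. Kif11 had 6257 normalized counts in 38-1 and 12.2 in 38-2, Birc5 9880 and 25.3, and Mki67 34018 and 5064. Ccnb1 was nearly level, with 1296 and 1117. Gtse1 (799 and 1571) and Pttg1 (250 and 437) were lower in 38-1, in which most other members were higher. Gtse1 had run this way in pair 17 and Pttg1 in pair 46. In pair 46, however, Gtse1 went with the members (10.2 in 46-1 and 9504 in 46-2). Pttg1 did so in pair 17 (3398 in 17-1 and 1860 in 17-2). Cdkn1a had fewer counts in 38-1 as in 17-1, with 531 against 4156, while in pair 46 it had 15472 in 46-2 and 9568 in 46-1. Foxm1 also had fewer in 38-1, with 69.1 against 1105, unlike in pair 17 and in pair 46, where 46-1 had 17.6 and 46-2 had 481. Trp63 was higher in 38-1 (12094 and 3116), as it was in 17-1 (7823 and 3327) and as it was not in 46-2, so the 3 pairs had no common direction for it.

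**Figure D4:**
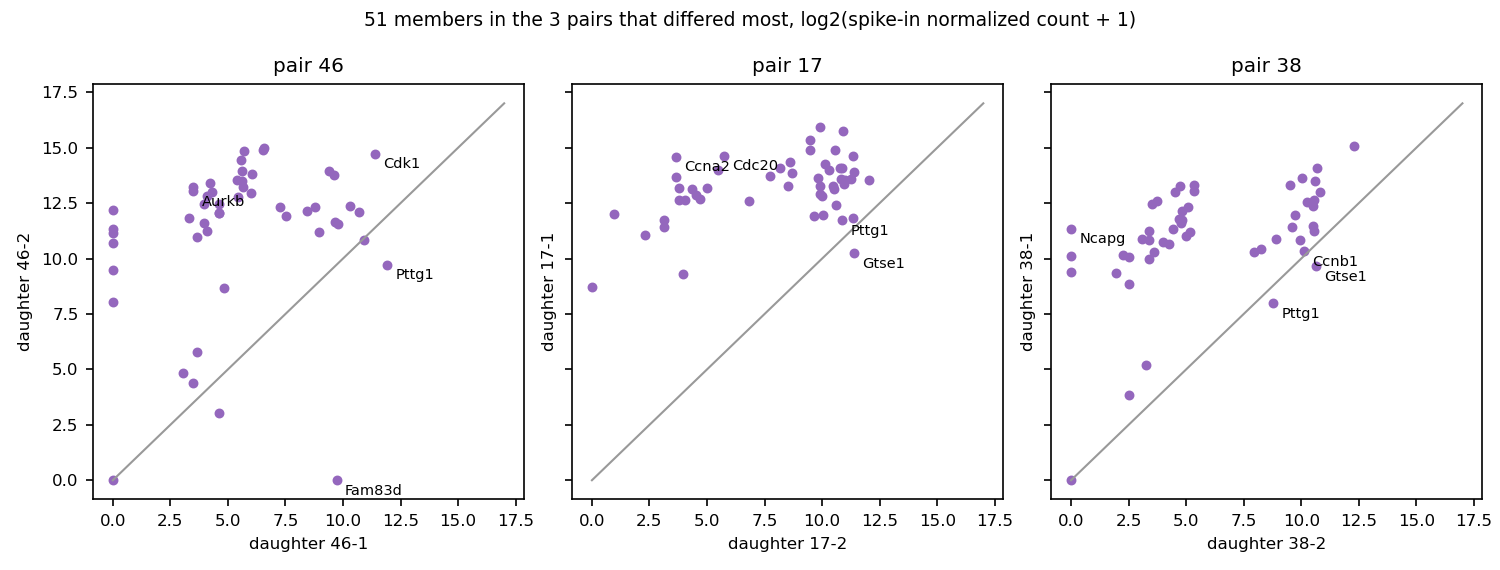
The 51 members in pairs 46, 17 and 38, as log2(normalized count + 1) in the daughter with the lower mean level (horizontal axis) against the other (vertical axis), with the line of equality. Most points lie above the line, Gtse1 lies below it in pairs 17 and 38, and Pttg1 lies below it in pairs 46 and 38.

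In the next pairs, 3 and 41, the difference was 2.77 and 2.50. In pair 3, 41 members were at least 1.5 times higher in 3-2 and 2 were lower, beside 41.6% and 25.7% of all genes. In pair 41, 37 members were higher in 41-2 and 10 were lower, beside 36.4% and 30.1% of genes. The differences of these 2 pairs ran through fewer members than those of the first 3.

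The 5 most alike pairs were 30, 13, 37, 45 and 21, with differences from 0.0112 to 0.144. Their common levels were not the same: 12.1 in both daughters of pair 30, 7.74 and 7.71 in pair 13, and 13.0 and 12.9 in pair 37. Single members differed in these pairs too, as genes in general did. In pair 30, 13 members were at least 1.5 times higher in 30-2 and 16 were lower, beside 32.6% and 31.3% of all genes. In pair 13, 14 and 20 were (34.1% and 29.7% of genes), and Aurka had 8.88 normalized counts in 13-1 and 2353 in 13-2 while Gtse1 had 1011 and 3.88. In pair 37, 18 were higher in 37-1 and 8 lower (30.3% and 31.2% of genes), in pair 45, 19 and 14 (26.3% and 37.1%), and in pair 21, 14 and 12 (27.0% and 37.7%).

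The members were then set against other genes of the cell cycle, each list taken as a mean of log2(normalized count + 1) like the members. Correlations over the 96 cells share the scaling, and each cell has its sister among them. The 23 genes of the APC/C and the spindle checkpoint followed the members with a Pearson r of 0.89 and a Spearman correlation of 0.91, with an r of 0.87 without the 2 cells farthest from the median member level, and with an r of 0.73 over the 48 differences between daughters. Within that list 4 checkpoint genes had a Spearman correlation of at least 0.7, Bub1 (0.82), Bub3 (0.77), Bub1b (0.76) and Ttk (0.75), while the checkpoint genes Mad2l1 and Mad1l1 were at 0.65 and 0.27. Subunits of the APC/C itself lay between 0.15 for Anapc2 and 0.51 for Cdc23.

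The 16 regulators of mitotic transcription had an r of 0.73, or 0.72 without those 2 cells, and a Spearman correlation of 0.68. Foxm1 correlated at 0.65 with the members and Mybl2 at 0.38. The MuvB subunits Rbbp4, Lin54, Lin9, Lin37 and Lin52 were at 0.57, 0.46, 0.38, 0.22 and 0.18. The NF-Y subunits Nfya, Nfyb and Nfyc were at 0.30, 0.21 and 0.35. None of the 16 reached 0.7. Foxm1 had 0, 9.44 and 108 TPM and Mybl2 0, 26.4 and 176 TPM. The 12 genes of G1 cyclins and inhibitors had an r of 0.57 over the cells but of 0.26 over the differences between daughters, and within it Cdkn1a was at -0.12 and Ccnd1 at 0.04, while Cdkn2d (p19) was at 0.63.

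For the 25 genes of S phase the relation was not a line. Their Pearson r with the members was 0.56 and fell to 0.50 without the 2 cells farthest from the median, and their Spearman correlation was 0.25. That correlation was 0.12 with CPM, 0.097 with size factors from all genes and 0.14 with TPM. Centred on the mean of each set, r was also 0.50. In the 10 cells with the lowest level of the members, the S phase list lay between 4.92 and 9.25. The 10 cells with the highest S phase level (12.4 to 12.9) had member levels of 7.51 to 10.8, and the 10 cells with the highest member level (12.6 to 14.0) had S phase levels of 9.38 to 11.9. No cell was in both of the last 2 sets of 10. The S phase list was thus low with the members, highest in the middle of their range and lower again at its top. Over the differences between daughters r was 0.66, and 0.51 without the 2 most distant pairs.

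Within the S phase list, Rrm1, a subunit of ribonucleotide reductase, followed the members most (0.63), then Pola1 (0.57) and Tyms (0.51). Cdc6, which licenses origins, and the cyclins Ccne1 and Ccne2 did not, with -0.13, -0.03 and 0.01. The MCM helicase genes lay between 0.12 for Mcm6 and 0.38 for Mcm7. The HBC markers had a Spearman correlation of 0.02 and an r of 0.11 with the members, and Trp63 a correlation of 0.13.

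**Figure D5:**
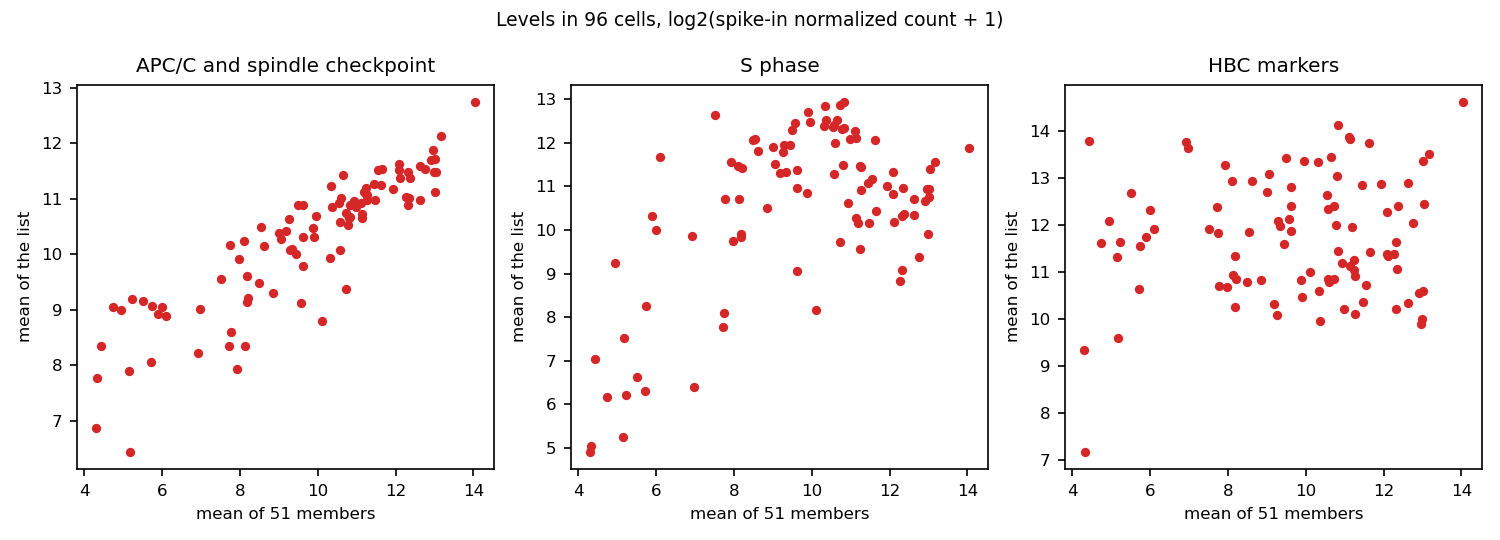
The mean of log2(normalized count + 1) over the 51 members (horizontal axis) against that of the APC/C and checkpoint genes, the S phase genes and the HBC markers (vertical axes) in 96 cells, 1 point a cell. The first rises throughout (Spearman correlation 0.91), the second rises and bends down again past a member level of about 11, and the third has no slope (Spearman correlation 0.02).

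Over all genes outside the list, the 15 that followed the members most closely were again largely genes of mitosis. Cenpe, a kinetochore kinesin, had a Spearman correlation of 0.90 and levels of 0, 18.8 and 120 TPM. Kpna2, an importin, was at 0.87, Knl1, a kinetochore scaffold, at 0.85 and Hmgb2, a chromatin protein, at 0.85. Bub1 (0.82), Cenpf (0.82), Cks2 (0.81), Sgo2a (0.80), Spc25 (0.80), Pbk (0.79), Nuf2 (0.79) and Ndc80 (0.79) followed, of which Spc25, Nuf2 and Ndc80 are subunits of 1 kinetochore complex. The other 3 were Gm10259, Gm10184 and Gm4739 (0.84 each), the first and last of which are annotated as processed pseudogenes, whose reads may be shared with a parent gene. The same holds for members with near-identical copies, such as Ccnb1, for which the table also lists Ccnb1-ps.

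At the other end, the most negative value was -0.43, for H2bc4, a gene of histone H2B that ran from 0 over 33.7 to 695 TPM. Next were Samd9l (-0.36), Fbxl20 (-0.34), 2810457G06Rik (-0.33), Cplx2 (-0.32), Ccdc9b (-0.32), Hid1 (-0.31), Bcl3 (-0.31), 9330151L19Rik (-0.29) and Tent5a (-0.28). Apart from H2bc4 and Ccdc9b, with a median level of 6.93 TPM, these had medians of at most 0.502 TPM. The negative end was thus weaker in size than the positive one and lay mostly in sparsely counted genes. Both ends are given for the spike-in scaling only. With it the median over all genes was 0.17, against 0.036 with CPM and -0.0026 with the median of ratios over genes. The part of the scaling in the difference between the ends was not tested.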

How the data were processed

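RNA of 96 single daughter cells (48 pairs) of cultured HBCs was sequenced by G&T-seq. Per the study's methods, the authors used Trimmomatic 0.39 for trimming, STAR 2.7.11a for alignment to GRCm38 and the ERCC sequences, and StringTie 2.2.1 for counting. The deposited table holds raw counts per gene, without normalization. The deposited table of each cell holds TPM, whose scaling includes the ERCC transcripts. A strand setting is not given in the sources used here. Daughters were picked by hand and no doublet caller was run.

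Counts were divided by a size factor, a median of ratios based on those ERCC transcripts that every cell had (22 of 92). A pseudocount of 1 was used on the log2 scale. The background was the 14463 genes that reached 10 counts in no fewer than 10% of cells. Scripts ran on Python 3.11.15, and the packages were numpy 2.4.6, scipy 1.17.1, matplotlib 3.10.9 and pandas 2.3.3. They were tested on simulated data. As the labels name no mouse or culture, there was 1 group, and no test or p-value was computed. Over these genes, no 2 cells had a Pearson correlation of log2 counts above 0.733, so no library was taken as a copy of another.

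The members, the other lists and the roles were chosen with earlier results of these data known. Members were named by role (highest and lowest median TPM), and as the 5 highest and 5 lowest by correlation, by intraclass correlation and by ratio. The genes of pairs 46, 17, 38 and 13 given as examples, and the comparison of the 10 highest and lowest cells for the S phase list, were picked after their values were seen. Promoter windows were taken from RefSeq (GRCm38.p6). No window was in the table for Aurkb, Ccna2, Cdc25c, Cdca2, Incenp, Kif20a, Pif1, Smc4 and Tpx2. Intraclass correlations, ratios, mean levels and correlations were recomputed under other scalings, pseudocounts and filters.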

Additional observations from a re-analysis of the deposited data

How the results depend on the processing

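Of 56 recomputed values, 46 stayed within the spread (1 SD over cells or members), within 0.1 for a correlation or within 1.5 times for a count, and none changed sign. With TPM in place of normalized counts, the median level of the members was 4.77 in place of 10.3 because the unit differs, and 9 in place of 17 pairs differed by at least 1, all 9 among the 17. The pseudocount stayed at 1 for this smaller unit, which narrows differences. With CPM 16 pairs did, 14 of them shared with the 17. The members counted in every cell fell from 23 to 11 at a minimum of 10 counts and to 0 at 1 TPM. CHR-type hexamers were in 20 in place of 35 windows when only the 150 bases before the start were searched, against 9.70% of all windows, and CCAAT was in 34 in place of 36, against 24.5%. Centred on each set, the median intraclass correlation was 0.37 in place of 0.52, and removing the mean of 4 pairs lowers this measure by construction. With the median of ratios over genes, the correlation with the S phase list was 0.46 in place of 0.56. The correlation of the level with the size factor was -0.37 with CPM, -0.33 with the median of ratios over genes and -0.35 with TPM, in place of -0.50. Without pair 46, 16 pairs differed by at least 1 and the median intraclass correlation was 0.56.

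There was no comparison between conditions to fit with a replicate block, since all cells belong to 1 group, while the sister pairs within it were compared in the report. The median member had 2335 counts, but Pif1 had a median of 9 counts, and ratios of genes this sparse rest on few reads. Intervals for counting error were not computed, since reads are not independent molecules. With 1 sample and no mouse named, nothing is known of the spread between mice or cultures.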

Other observations

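The second principal component of the 51 members, which held 4.50% of their variance, also had sisters alike, with an intraclass correlation of 0.74 over 48 pairs. Ccnb2 (-0.39), Cdca3 (-0.27), Tacc3 (-0.24) and Ccnb1 (-0.20) had its most negative loadings, and Cdk1 (0.23), Aurkb (0.22), Kif20b (0.21) and Cdc25b (0.20) its most positive ones. The sign of a component is arbitrary. Cdk1 and the B-type cyclin genes Ccnb1 and Ccnb2 thus had loadings of opposite sign, while Ccna2 had -0.0886. The third component held 4.09% of the variance, close to the second, so the loadings of the second are not well determined. What it stands for was not tested.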
